A study of Mus musculus with 22 samples.

Results

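Genes of calcium release from the sarcoplasmic and endoplasmic reticulum were followed through the embryonic mouse heart, namely the ryanodine receptors Ryr1, Ryr2 and Ryr3, the IP3 receptors Itpr1, Itpr2 and Itpr3, and the junctophilins Jph1 and Jph2. They are 8 of the 54356 genes quantified. Ryr3 was chosen by its measured level, which was much higher where Prdm16 had been conditionally deleted (cKO) than in controls, and the other 7 were taken as its paralogues and as the proteins that hold the release site together. The levels of Ryr3 are therefore given as a description with no test, in cKO against control and in left against right ventricle, and the other 7 genes were tested.

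Ryanodine receptors are very large tetrameric channels of the sarcoplasmic reticulum that open when cytosolic calcium rises. In heart muscle Ryr2 is the main isoform and releases the calcium that triggers contraction, while Ryr1 does so in skeletal muscle and Ryr3 is known from brain, smooth muscle and developing skeletal muscle. IP3 receptors are related channels of the endoplasmic reticulum that open in response to inositol trisphosphate made by phospholipase C. Junctophilins tether the sarcoplasmic reticulum to the plasma membrane, so that L-type calcium channels face ryanodine receptors across a narrow cleft.

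Bulk RNA was sequenced from C57BL/6 hearts or isolated ventricles at E13.5 in 22 libraries. The cKO group carried the label Prdm16 conditional knockout, and the controls, which the series calls littermates, were titled WT and labelled Mock. There were 3 cKO and 3 control whole hearts, 4 and 4 left ventricles, and 4 and 4 right ventricles. The Cre driver, and whether embryos were pooled, are not given in the sources used here. Nothing there states that the libraries came from separate embryos, so the p-values measure the spread between libraries. No source says which left and right ventricles, if any, were taken from one heart. Prdm16 encodes the zinc finger transcription factor that was deleted, and the series addresses what it does in the compact myocardium of the left ventricle.

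Libraries held 38590751 to 62004017 assigned reads in the whole heart and 14508722 to 22830716 in the ventricles. Prdm16 was at 18 to 21.17 CPM (counts scaled to library size) in the whole heart cKO and 35.56 to 43.32 CPM in the controls, 21.97 to 23.80 and 46.23 to 57.17 CPM in the left ventricle, and 22.60 to 26.13 and 37.85 to 45.28 CPM in the right ventricle, with no overlap between genotypes, and it passed the test in each tissue (log2 fold change -1.04, -1.19 and -0.75, adjusted p = 0.00192, 6.47e-09 and 2.96e-06, edgeR). Its call was lost with limma on TPM in the whole heart (-0.82, adjusted p = 0.191) and with limma on TPM or length-scaled counts in the right ventricle (adjusted p up to 0.14), while no left ventricle setting lost it. Whole heart control 1 stood apart with 19478 genes that had a read, against 25499 to 27146 in the other whole hearts. Right ventricle control 2 stood apart with 581.43 CPM of the mesenchymal gene Postn against 106.32 to 120.90 CPM in the other 3 controls. Of the 8 cardiomyocyte markers examined, such as Tnnt2 and Myl2, none had a level under 1 TPM, the abundance per unit length and library size, in all libraries of a group. In bulk RNA, fewer cells of a type and less RNA per cell cannot be told apart.

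Ryr3 (ENSMUSG00000057378, minus strand of chromosome 2, 112631355 to 113217096, GRCm38) was well above its control range in the cKO of every tissue. Left ventricle controls gave 8.91, 7.13, 9.85 and 10.17 CPM, and left ventricle cKO gave 94.73, 90, 93.12 and 109.40 CPM. Right ventricle controls gave 12.91, 15.92, 16.30 and 18.86 CPM, against 95.08, 92.58, 77.87 and 94.99 CPM for the right ventricle cKO. Whole heart controls gave 21.37, 31.49 and 26.83 CPM, and whole heart cKO 137.83, 152.90 and 154.15 CPM. Control and cKO libraries overlapped in none of the 3 tissues. The ventricles reached about the same level in the cKO, and what differed between them was the control level, which was lower on the left.

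**Figure D1:**
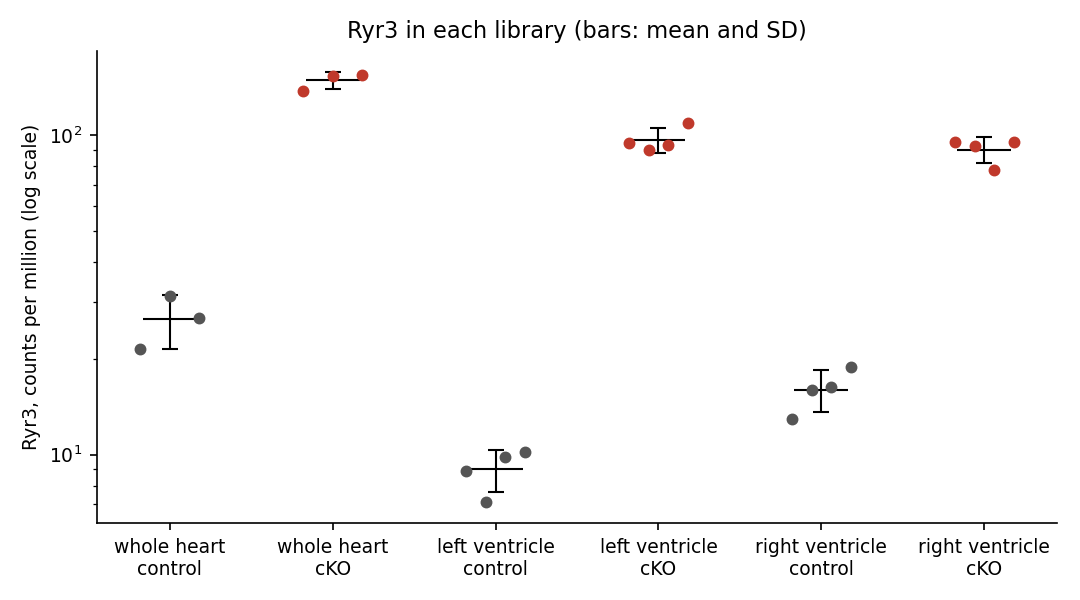
Ryr3 in each of the 22 libraries, in CPM on a log axis; points are libraries, and bars give the mean and SD of each group. Left ventricle controls lie between 7.13 and 10.17, right ventricle controls between 12.91 and 18.86, and the cKO libraries of both ventricles between 77.87 and 109.40.

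The fitted ratio of cKO to control for Ryr3 was 10.7-fold in the left ventricle, 5.64-fold in the right and 5.61-fold in the whole heart. On the log2 scale the whole heart difference was 2.49. In the left ventricle 18 of the 16448 genes tested had a larger log2 fold change, in the right ventricle 36 of 16448, and in the whole heart 37 of 19160. Ryr3 was chosen for this rise, so a high rank follows from the choice. Leaving out 1 library at a time gave log2 fold changes of 3.32 to 3.48 on the left, 2.41 to 2.58 on the right and 2.36 to 2.63 in the whole heart. These ranges include the fits without whole heart control 1 and without right ventricle control 2. The gene Aven lies on the opposite strand and shares 3219 bases with the 3′ end of Ryr3. Aven was at 13.3 CPM in the left ventricle controls and 14.3 CPM in the cKO (log2 fold change 0.10, adjusted p = 0.432, edgeR).

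Levels of different genes were compared per unit length, in TPM. The TPM of all Ryr3 transcripts together did not follow the read counts. In left ventricle cKO 4 the summed TPM was 56.19, and in the other 3 left ventricle cKO libraries 21.08 to 23.66, although the CPM of that library was only 109.40 against 90 to 94.73. Of those 56.19 TPM, 30.11 belonged to a 137-base annotated transcript to which 2.53 estimated reads had been assigned. Its effective length, the number of positions at which a fragment could start, was 5 bases in the deposited estimates, so 1 read was worth 11.9 TPM there and 0.00388 TPM in the most abundant full-length transcript. The same transcript held 6.77 of the 10.52 TPM of right ventricle control 3 on 0.75 estimated reads, and it was at 0 in the other 20 libraries. It is shown because a few reads on it set the deposited gene level of these 2 libraries. Capitals mark the 29 bases of its first exon and small letters the 108 bases of its second, all of them annotated as coding (chr2:112996580-113216968, GRCm38, minus strand, GENCODE M21).
Ryr3 short coding transcript: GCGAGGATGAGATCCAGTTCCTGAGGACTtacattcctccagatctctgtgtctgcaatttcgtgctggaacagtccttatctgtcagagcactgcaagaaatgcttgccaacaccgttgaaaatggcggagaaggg
The junction between these exons was in none of the other 11 annotated Ryr3 transcripts.

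A further short transcript held 24.4% to 76.1% of the summed Ryr3 TPM of a ventricle library. It is 612 bases long, is annotated as a retained intron with no coding sequence, and lies near the 3′ end of the gene (chromosome 2, 112636628 to 112640559). In left ventricle cKO 1 it had 13.23 of the 21.83 TPM of Ryr3 on 65.22 estimated reads, while the full-length coding transcripts had 6.74 TPM and 93.8% of the 1620 reads. Of its 612 bases, 339 are also exonic in full-length transcripts. Over all 22 libraries the full-length coding transcripts held 88.3% to 98% of the Ryr3 reads but 9.73% to 83.8% of the Ryr3 TPM. Full-length here means coding transcripts of at least 0.7 of the length of the gene's longest one, a definition chosen after seeing the data, and 5 of the 12 Ryr3 transcripts met it. One of these, which starts at an internal site, was at 0 in all libraries.

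**Figure D2:**
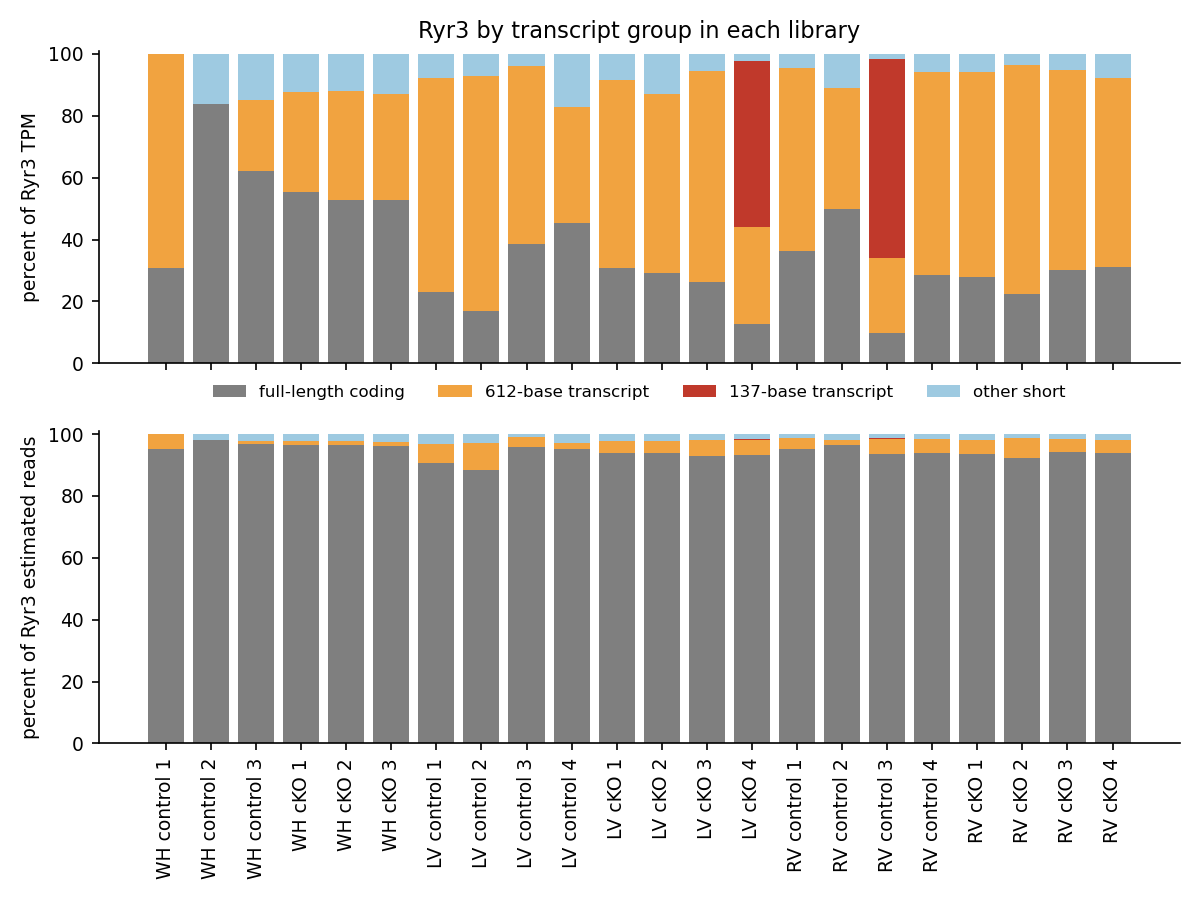
Percent of Ryr3 TPM (top) and of estimated Ryr3 reads (bottom) in each library that belonged to full-length coding transcripts, the 612-base transcript, the 137-base transcript and other short transcripts. Full-length transcripts hold at least 88.3% of the reads in each library, while the 137-base transcript holds most of the TPM in left ventricle cKO 4 and right ventricle control 3.

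On the scale of full-length TPM, Ryr3 was at 0.58, 0.45, 0.68 and 0.69 in the left ventricle controls and at 6.74, 6.18, 6.24 and 7.10 in the left ventricle cKO. Right ventricle libraries were at 0.81, 1.13, 1.02 and 1.23 in the controls and at 6.26, 5.93, 4.85 and 6.25 in the cKO. Whole heart libraries were at 1.83, 2.78 and 2.44 in the controls and at 12.39, 14.00 and 13.87 in the cKO. On this scale too, the groups did not overlap in any tissue, and left ventricle cKO 4 no longer stood far from its group.

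Ryr2 was the most abundant ryanodine receptor in all 6 groups. Its full-length TPM was 16.8 ± 0.681 (SD, n = 4) in the left ventricle controls and 13.9 ± 0.16 (SD, n = 4) in the cKO. In the right ventricle it was 21.2 ± 0.472 and 19.3 ± 1.75 (SD, n = 4 each), and in the whole heart 35.2 ± 3.37 and 33.4 ± 1.48 (SD, n = 3 each). Ryr3 made up 3.43% ± 0.633 (SD, n = 4) of the full-length ryanodine receptor TPM in the left ventricle controls and 32.0% ± 1.61 (SD, n = 4) in the cKO. In the right ventricle the share was 4.70% ± 0.701 and 23.2% ± 1.30 (SD, n = 4 each), and in the whole heart 6.21% ± 0.676 and 28.7% ± 1.85 (SD, n = 3 each). Ryr1 did not exceed 0.776% in any library. The size of the share depended on the scale. In the left ventricle cKO it was 39.6% ± 13.1 when all transcripts were summed and 26.4% ± 1.76 from CPM (SD, n = 4 each), against 3.92% and 2.66% in the controls.

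**Figure D3:**
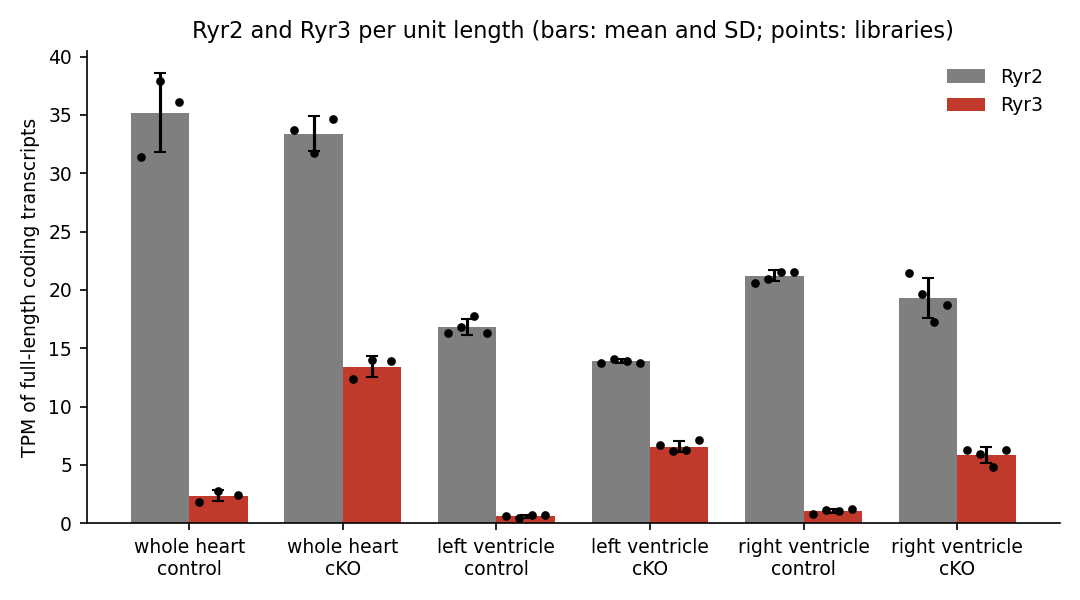
TPM of full-length coding transcripts of Ryr2 and Ryr3 by group; bars are means with SD, and points are libraries. Ryr3 goes from 0.598 to 6.57 in the left ventricle and from 1.05 to 5.82 in the right, below Ryr2 in each group.

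The order of the 8 genes by full-length TPM was the same at the top in all 6 groups, with Jph2 followed by Ryr2 and then Itpr1, and the libraries of these neighbours did not overlap. In the controls of all 3 tissues Itpr2 followed, then Jph1, Itpr3, Ryr3 and Ryr1. In the whole heart controls the libraries of Jph1 and Itpr3, and of Itpr3 and Ryr3, overlapped. In the cKO of all 3 tissues Ryr3 stood between Itpr1 and Itpr2. There Jph1 and Itpr3 came next above Ryr1, and their libraries overlapped in the right ventricle. Ryr1 was last throughout, at a mean of 0.031 to 0.0653 TPM.

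Among the genes tested with Ryr3 set aside, the change in the left ventricle cKO was a fall of Ryr2, Jph1 and Jph2. These 3 of 7 genes passed the threshold, an adjusted p under 0.05 in edgeR's quasi-likelihood test, beside 25.6% of all 16448 genes tested there (12.3% higher and 13.4% lower). None of the 7 passed in the right ventricle, beside 10.3% of all genes (6.12% higher and 4.19% lower), or in the whole heart, beside 4.03% of 19160 genes (1.96% higher and 2.07% lower). At an unadjusted p under 0.05 the counts were 2 of 7 and 4 of 7, and DESeq2 called 0 in the right ventricle and 2 in the whole heart. The median log2 fold change of the 7 was -0.05 on the left, where that of all genes was about 0, and the 3 of 7 are read against the share of all genes called.

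**Figure D4:**
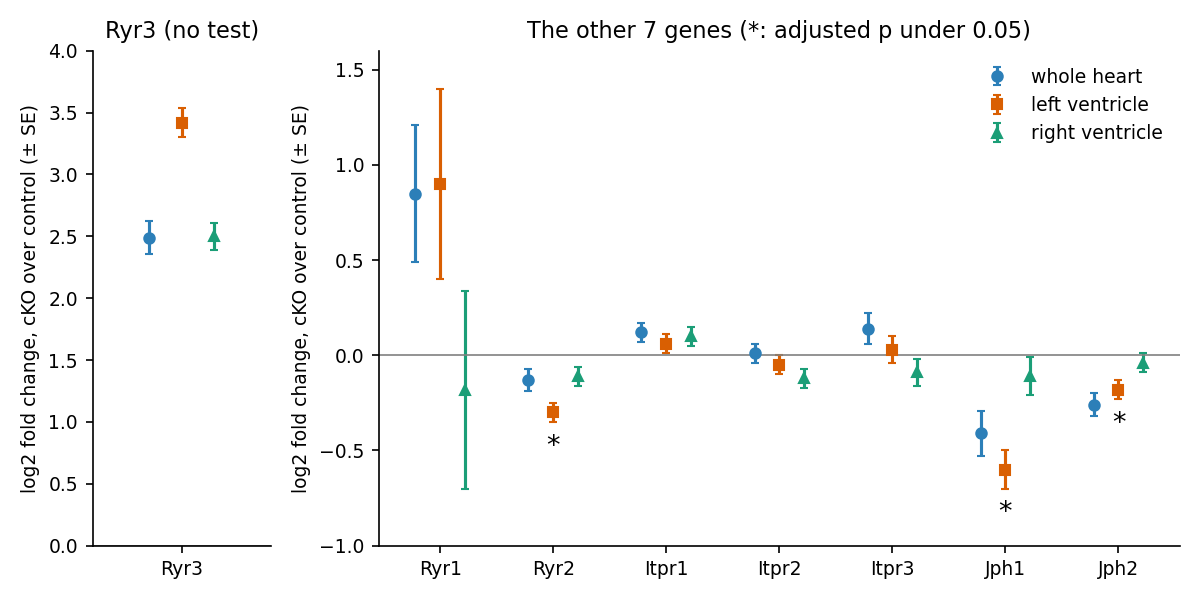
Log2 fold change of cKO over control with its SE for the 8 genes in the whole heart, left ventricle and right ventricle; stars mark an adjusted p under 0.05, and Ryr3 has its own axis and no test. Ryr3 lies at 2.49 to 3.42, and the called falls are Ryr2, Jph1 and Jph2 in the left ventricle.

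Ryr2 (ENSMUSG00000021313, chromosome 13, 11553102 to 12106945 on the minus strand), the release channel of cardiac excitation-contraction coupling, had 262.91, 265.86, 275.71 and 267.28 CPM in the left ventricle cKO and 319.41, 334.97, 342.93 and 323.26 CPM in the controls. The groups did not overlap. The log2 fold change was -0.30 ± 0.05 (SE, adjusted p = 0.000344, edgeR), and limma on TPM gave -0.27 and did not pass (adjusted p = 0.0597). The right ventricle cKO libraries had 369.75 to 440.84 CPM around a median of 395.58 and the controls 392.46 to 450.96 CPM around 443.70, and these overlapped. The right ventricle log2 fold change was -0.11 ± 0.05 (SE, adjusted p = 0.222), and without right ventricle control 2 it was -0.15 and passed (adjusted p = 0.0494). The whole heart value was -0.13 ± 0.06 (SE, adjusted p = 0.34).

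Jph1 (ENSMUSG00000042686, chromosome 1), best known as the junctophilin of skeletal muscle triads, had 9.88, 8.15, 9.40 and 9.07 CPM in the left ventricle cKO and 13.72, 13.74, 14.49 and 13.36 CPM in the controls. The groups did not overlap, and the log2 fold change was -0.60 ± 0.10 (SE, adjusted p = 0.000317, edgeR). Right ventricle libraries overlapped (13.4 ± 1.87 CPM in the cKO and 14.5 ± 1.70 in the controls, SD, n = 4 each), with a log2 fold change of -0.11 ± 0.10 (SE, adjusted p = 0.564). Whole heart cKO libraries had 8.19, 9.43 and 8.40 CPM, all below the controls at 10.14, 12.22 and 12.54 CPM. That difference of -0.41 ± 0.12 (SE) did not pass (adjusted p = 0.114, edgeR), and it passed without whole heart control 1 at -0.50 (adjusted p = 0.0199).

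Jph2 (ENSMUSG00000017817, chromosome 2, 163336242 to 163397993 on the minus strand), the main junctophilin of heart muscle, had 245.14, 260.81, 267.18 and 251.47 CPM in the left ventricle cKO and 281.47, 283.59, 314.44 and 281.34 CPM in the controls. The groups did not overlap, and the log2 fold change was -0.18 ± 0.05 (SE, adjusted p = 0.0134, edgeR). The call was lost without left ventricle control 3, the highest library, at -0.14 (adjusted p = 0.056), with length-scaled counts, at -0.11 (adjusted p = 0.265), and with limma on TPM, at -0.04 (adjusted p = 0.715). Whole heart cKO libraries had 208.28, 214.91 and 221.45 CPM, below the 273.81, 235.37 and 268.79 CPM of controls. This difference, -0.26 ± 0.06 (SE), did not pass (adjusted p = 0.0708, edgeR), and it passed without whole heart control 2 at -0.32 (adjusted p = 0.0145). Over the other edgeR settings, DESeq2 and limma it was -0.28 to -0.06 (adjusted p = 0.00228 to 0.788). In TPM the groups overlapped, at 52.02 to 56.87 in the whole heart cKO and 50.48 to 60.41 in the controls. Left ventricle TPM overlapped too, at 55.57 to 67.75 and 60.70 to 67.18. The right ventricle value was -0.04 ± 0.05 (SE, adjusted p = 0.67).

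Cardiomyocyte markers were lower in the same left ventricle libraries. Of the 8 markers, 5 were called lower and none higher, beside 13.4% lower and 12.3% higher of all genes. Among the 5 were Myl2 at -0.52 and Tnnt2 at -0.27 on the log2 scale (adjusted p = 0.00012 and 0.000274, edgeR). The 8 markers summed to 38229 to 45940 TPM in the left ventricle cKO and 48164 to 51124 TPM in the controls. In the right ventricle the sums were 50738 to 57694 and 48554 to 55273 TPM, and 0 of the 8 were called. In the whole heart 4 of the 8 were called lower and 0 higher, beside 2.07% lower and 1.96% higher of all genes. Whole heart sums were 25817 to 27422 TPM in the cKO and 29268 to 31158 TPM in the controls, with no overlap. Myl2, at 9726 to 30645 TPM over the 22 libraries, weighs heavily in these sums. The 6 endothelial markers summed to 388.85 to 441.42 TPM in the left ventricle cKO and 318.68 to 334.96 TPM in the controls, and 5 of them rose. The part of these shifts in the fall of Ryr2, Jph1 and Jph2 was not tested.

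Markers of several cell types moved in the direction of Ryr3, genes listed as atrial among them. Of 7 such genes, 5 were called higher in the left ventricle, 4 in the right and 5 in the whole heart. Of all genes tested, 12.3% were called higher on the left, 6.12% on the right and 1.96% in the whole heart. These shares are the measure for the lists below as well. The atrial list summed to 10843 to 12889 TPM in the left ventricle cKO and 5094 to 6127 TPM in the controls. In the right ventricle the sums were 5705 to 7723 and 2907 to 3874 TPM. Whole heart sums were 5750 to 6930 and 3181 to 3757 TPM. Controls of the isolated left ventricle thus lay above whole heart controls, so this sum cannot be read as a measure of atrial tissue here. It was set mostly by Nppa, at 1440 to 10773 TPM over the 22 libraries, and Myl7, at 841 to 2543 TPM. Sln, Nr2f2, Kcnj5, Mybphl and Bmp10 did not exceed 80.45 TPM. The part of atrial tissue was not tested. Endothelial markers also summed higher in the right ventricle, at 335 to 364.19 TPM in the cKO and 309.90 to 330.85 TPM in the controls, and in the whole heart, at 404.73 to 436.05 and 331.12 to 367.91 TPM, with no overlap in either and with 1 and 2 of the 6 called higher. The 6 conduction markers summed to 190.52 to 210.85 TPM in the whole heart cKO and 132.12 to 153.22 TPM in the controls, with 2 called higher there, while in each ventricle their sums overlapped. Epicardial and mesenchymal markers summed to 868.73 to 968.68 and 721.65 to 759.34 TPM in the whole heart, with no overlap, and 3 of 6 were called higher in the left ventricle and 1 in the right, where sums overlapped. Of 6 blood markers 2 were called higher in each ventricle, and their sums overlapped in all 3 tissues. Smooth muscle is another known site of Ryr3. Its 5 markers summed to 676.99 to 842.87 TPM in the left ventricle cKO and 765.38 to 880.44 TPM in the controls. Right ventricle sums were 1361.73 to 1727.59 and 1584.48 to 1829.24 TPM, and sums overlapped in all 3 tissues. On the left 1 was called higher and 1 lower, beside 13.4% lower of all genes. On the right 1 was called higher, and in the whole heart 0 (edgeR). Neuron and glia markers are relevant because Ryr3 is a brain isoform. Of 9 listed, 5 were tested in each ventricle and 8 in the whole heart, and none was called (edgeR). At an unadjusted p under 0.05 the counts were 1 on the left, 0 on the right and 0 in the whole heart. The median log2 fold changes were -0.42, 0.17 and 0.51 in that order. A lack of calls at these low levels does not show a lack of change. The 9 markers summed to 8.31 to 10.40 TPM in the left ventricle cKO and 10.18 to 13.06 TPM in the controls. Th, Dbh, Sox10 and Snap25 were each under 1 TPM in all 22 libraries. The skeletal muscle factors Myod1, Myf5, Myog and Pax7 were also under 1 TPM in all libraries. The 9 skeletal markers summed to 5.56 to 10.59 TPM in the left ventricle cKO and 5.17 to 8.76 TPM in the controls. In each tissue 1 was called higher, of 5 tested in each ventricle and 6 in the whole heart. The part of these markers in the level of Ryr3 was not tested.

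Ryr1 (ENSMUSG00000030592, chromosome 7), the skeletal muscle release channel, was near the limit of detection. It had 7 to 44 reads in a ventricle library and 22 to 71 in a whole heart library. Left ventricle cKO gave 2.57, 0.40, 0.41 and 0.84 CPM, against 0.77, 0.34, 0.39 and 0.81 CPM for controls. A single library, left ventricle cKO 1, was high, and the groups overlapped. The log2 fold change of 0.90 ± 0.50 (SE) did not pass (adjusted p = 0.215, edgeR), and without that library it was -0.03. In the right ventricle the value was -0.18 ± 0.52 and in the whole heart 0.85 ± 0.36 (SE, adjusted p = 0.888 and 0.288). Changes within these errors were not detectable at this depth.

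None of the IP3 receptors passed the test between genotypes with edgeR. Itpr1 (ENSMUSG00000030102, chromosome 6), the type known from Purkinje neurons, had 115.73 to 124.41 CPM in the left ventricle cKO and 109.37 to 124.16 CPM in the controls. Its log2 fold change was 0.06 ± 0.05 on the left, 0.10 ± 0.05 on the right and 0.12 ± 0.05 in the whole heart (SE, adjusted p = 0.337, 0.215 and 0.237, edgeR). Itpr2 (ENSMUSG00000030287, chromosome 6), the type usually named for heart muscle, had 57.12 to 62.37 CPM in the left ventricle cKO and 61.06 to 64.07 CPM in the controls. Its changes were -0.05, -0.12 and 0.01, each with an SE of 0.05 (adjusted p = 0.547, 0.161 and 0.948, edgeR). Itpr3 (ENSMUSG00000042644, chromosome 17), best known from epithelia, had 25.82 to 30.34 and 24.85 to 28.39 CPM, with changes of 0.03 ± 0.07, -0.09 ± 0.07 and 0.14 ± 0.08 (SE, adjusted p = 0.811, 0.547 and 0.442, edgeR). With length-scaled counts alone, Itpr3 passed in the left ventricle (0.45, adjusted p = 0.0418). Gm44087 lies opposite to Itpr2 and rose in both ventricles (0.46 in each, adjusted p = 0.00591 and 0.013, edgeR); whether the quantification used strand is not given in the sources used here, and its part in Itpr2 was not tested. The summed full-length TPM of the IP3 receptors was 20.7 ± 0.833 in the left ventricle controls and 21.5 ± 0.864 in the cKO (SD, n = 4 each), and 17.2 ± 1.16 and 17.1 ± 0.995 in the right ventricle (SD, n = 4 each).

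Whether the effect differed between the ventricles was tested as the left minus right difference. None of the 7 genes passed, beside 1.43% of all genes (0.462% higher and 0.973% lower; 2 at an unadjusted p under 0.05, and 0 with DESeq2). The smallest adjusted p was that of Jph1, at -0.49 ± 0.14 (SE, adjusted p = 0.0995, edgeR), which passed without right ventricle cKO 1 at -0.59 (adjusted p = 0.0224). For Ryr2 the difference was -0.20 ± 0.07 (SE, adjusted p = 0.23) and for Jph2 -0.14 ± 0.07 (SE, adjusted p = 0.417). The falls called on the left are therefore not shown to differ from the values on the right. For Ryr3 the difference was 0.92 on the log2 scale, given with no test.

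The left and right ventricle of one genotype differed in most of these genes. Of the 7 genes other than Ryr3, 5 passed in the controls, 3 higher and 2 lower on the left, beside 21% of all genes (9.02% higher and 12% lower). In the cKO 6 of the 7 passed, 3 in each direction, beside 32.8% (14.5% higher and 18.3% lower). In both genotypes Ryr2 and Jph2 were lower on the left and the 3 IP3 receptors higher on the left. These comparisons use the same libraries as those between genotypes.

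**Figure D5:**
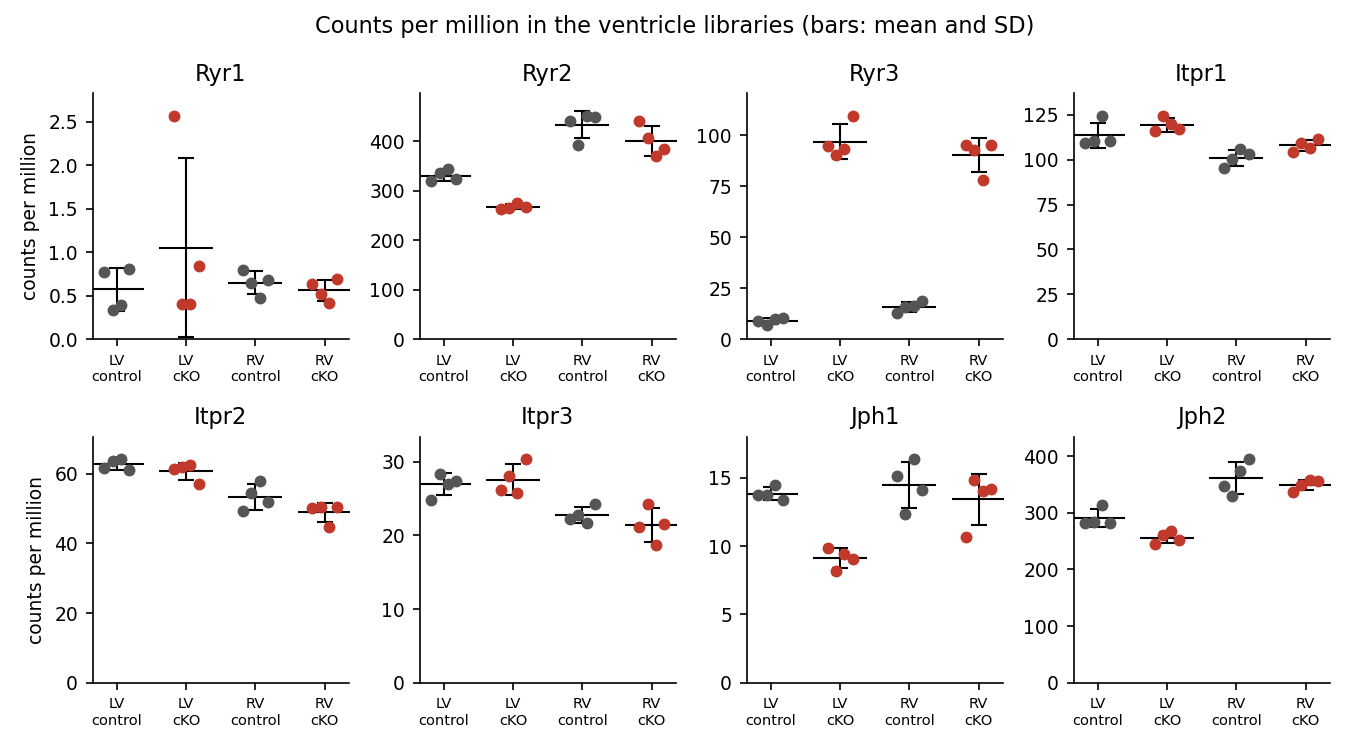
CPM of the 8 genes in the ventricle libraries; points are libraries, and bars give the mean and SD of the 4 libraries of a group. Ryr2 and Jph2 are lower on the left in both genotypes, and Ryr3 is lower on the left in the controls.

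Ryr2 was at 330 ± 10.8 CPM in the left and 433 ± 27.2 CPM in the right ventricle of controls (SD, n = 4 each), with no overlap and a log2 difference of -0.39 ± 0.05 (SE, adjusted p = 7.74e-05, edgeR). In the cKO it was at 268 ± 5.49 and 400 ± 30.9 CPM (SD, n = 4 each), a difference of -0.58 ± 0.05 (SE, adjusted p = 6.00e-07, edgeR). Jph2 followed the same order, at -0.31 ± 0.05 in the controls and -0.45 ± 0.05 in the cKO (SE, adjusted p = 0.000461 and 6.38e-06, edgeR), and both calls were lost with limma on TPM (-0.18 and -0.16, adjusted p = 0.0985 and 0.079). Jph1 did not differ in the controls beyond its spread (-0.06 ± 0.10, SE, adjusted p = 0.715), and in the cKO it was lower on the left with a log2 fold change of -0.55 ± 0.10 (SE, adjusted p = 0.000584, edgeR).

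Ryr3 was at 9.01 ± 1.36 CPM in the left and 16 ± 2.44 CPM in the right ventricle of controls (SD, n = 4 each). The libraries did not overlap, and the log2 difference was -0.82. It is given with no test, since these control libraries entered the rise by which Ryr3 was chosen. Right ventricle control 3, with its TPM on the 137-base transcript, had 10.52 summed TPM against 2.24 to 4.29 in the other right ventricle controls. In the cKO the ventricles had 96.8 ± 8.62 and 90.1 ± 8.25 CPM (SD, n = 4 each) and overlapped, with a log2 difference of 0.10.

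The IP3 receptors were higher on the left. Itpr2 was at 62.6 ± 1.45 and 53.3 ± 3.69 CPM in the controls (SD, n = 4 each), a log2 difference of 0.23 ± 0.05 (SE, adjusted p = 0.00404, edgeR), and the difference was 0.31 ± 0.05 in the cKO (SE, adjusted p = 0.000273). Itpr3 differed by 0.25 ± 0.07 in the controls and 0.36 ± 0.07 in the cKO (SE, adjusted p = 0.022 and 0.00113, edgeR). The Itpr3 call in controls was lost without left ventricle control 2 or 4 or right ventricle control 1 or 3, at 0.22 to 0.24 (adjusted p = 0.0551 to 0.0705). Itpr1 differed by 0.17 ± 0.05 and 0.14 ± 0.05 (SE, adjusted p = 0.0117 and 0.0237, edgeR), and its call in the cKO was lost without left ventricle cKO 2 or right ventricle cKO 1 or 3, at 0.12 to 0.13 (adjusted p up to 0.0781). With length-scaled counts and with limma on TPM the calls of Itpr1 and Itpr2 in both genotypes, and of Itpr3 in the controls, were lost (adjusted p up to 0.675, 0.473 and 0.28). Left and right libraries of Itpr1 and Itpr2 did not overlap in either genotype. Cardiomyocyte markers were again lower on the left, with 3 of 8 called in the controls and 6 of 8 in the cKO, and none higher; their part in the order of Ryr2 and Jph2 was not tested.

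Ryr2 and Jph2, which were both lower on the left and fell in the left ventricle cKO, are shown with the promoter sequences that RefSeq gives for their starts (GRCm38.p6, 250 bases before to 50 after the start, written 5′ to 3′ on the minus strand that carries both genes). Capitals mark matches to the E-box CANNTG, which reads the same on both strands.
Ryr2 (chr13:12106896-12107195): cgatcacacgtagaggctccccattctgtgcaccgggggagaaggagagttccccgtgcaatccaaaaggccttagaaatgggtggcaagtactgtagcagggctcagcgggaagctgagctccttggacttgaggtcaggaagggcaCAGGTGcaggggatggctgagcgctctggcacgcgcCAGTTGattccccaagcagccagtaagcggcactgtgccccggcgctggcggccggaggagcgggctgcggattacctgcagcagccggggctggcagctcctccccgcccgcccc
Jph2 (chr2:163397944-163398243): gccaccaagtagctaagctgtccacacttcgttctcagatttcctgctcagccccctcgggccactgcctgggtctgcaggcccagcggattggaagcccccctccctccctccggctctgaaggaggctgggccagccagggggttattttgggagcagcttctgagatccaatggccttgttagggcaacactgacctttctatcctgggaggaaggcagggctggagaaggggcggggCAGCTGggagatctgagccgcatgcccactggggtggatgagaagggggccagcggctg
Ryr2 had 2 matches and Jph2 had 1, and 72.3% of the 32544 promoter sequences in the table held at least 1. Neither window held the GATA motif AGATAA, the T-box motif AGGTGT or the TATA motif TATAAA, searched on both strands, which were in 11.2%, 13.8% and 13.6% of promoters. The GC box GGGCGG occurred 2 times in Ryr2 and 1 time in Jph2, beside 35.9% of promoters with at least 1. These are descriptions of the letters in the windows. Jph2 has 2 starts in the table, and 1 is printed. Ryr3, Itpr1 and Jph1 have no promoter printed here.

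Transcript composition was compared between genotypes through the share of each gene's TPM held by its most abundant transcript. None of 24 tests passed or had an exact p under 0.05 (two-sided exact permutation tests, adjusted over the 24), with a smallest possible p of 0.1 in the whole heart and 0.0286 in a ventricle. A change in a single test could thus not have passed after adjustment, and the lack of calls does not show an unchanged composition. Some shares could not differ at all, such as that of Itpr3 in the right ventricle, at 100% in every library. A 3086-base coding transcript inside the Ryr2 gene (11587214 to 11646608) held 45.0% ± 2.31 of the Ryr2 TPM in the left ventricle cKO and 44.2% ± 1.63 in the controls (SD, n = 4 each, exact p = 0.657). In the whole heart its share was 24.7% ± 0.985 in the cKO and 22.6% ± 4.40 in the controls (SD, n = 3 each, exact p = 0.7). Paralogues shared few stretches of identical sequence. Of the 15438 words of 31 bases in the longest coding Ryr3 transcript, 0 occurred in the longest coding transcript of Ryr1 or Ryr2, and between any pair of members of a family at most 5 words were shared.

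The partners of the ryanodine receptor in the sarcoplasmic reticulum showed 6 of 17 genes higher and 2 lower in the left ventricle cKO, 4 higher and 1 lower in the right, and 1 higher in the whole heart. Of all genes, 12.3% were called higher and 13.4% lower on the left, 6.12% and 4.19% on the right, and 1.96% and 2.07% in the whole heart. The 2 lower genes on the left are thus no larger a share than among all genes. Hrc, a histidine-rich calcium-binding protein of the reticulum lumen, rose in all 3 tissues, from 153 ± 22.4 to 214 ± 13.8 CPM in the right ventricle (SD, n = 4 each). Its log2 fold change was 0.55 on the left, 0.48 on the right and 0.46 in the whole heart (SE 0.09, 0.09 and 0.06, adjusted p = 0.000175, 0.00138 and 0.00943, edgeR), and the whole heart call was lost without whole heart cKO 2 (0.47, adjusted p = 0.055), with length-scaled counts and with limma on TPM (adjusted p up to 0.14). Trdn, triadin, which anchors calsequestrin to the ryanodine receptor, rose by 0.24 ± 0.06 on the left and 0.33 ± 0.06 on the right (SE, adjusted p = 0.0108 and 0.0028, edgeR). Both calls were lost with length-scaled counts, at 0.08 and 0.25 (adjusted p = 0.633 and 0.151), and with limma on TPM (adjusted p = 0.357 and 0.161). Casq1, the skeletal calsequestrin, rose by 0.36 ± 0.09 on the left (SE, adjusted p = 0.00582), and Fkbp1a, which stabilises the closed channel, rose by 0.14 ± 0.04 there (SE, adjusted p = 0.00695). Pde4d, a phosphodiesterase that breaks down cyclic AMP, rose by 0.31 ± 0.07 on the right (SE, adjusted p = 0.00652, edgeR) and by 0.18 ± 0.06 on the left (SE, adjusted p = 0.0463), where the call was lost with DESeq2, RLE scaling, length-scaled counts, limma on TPM or no filter, and without cKO 1 or 3 or any 1 control (adjusted p up to 0.234). Prkaca, the catalytic subunit of protein kinase A that phosphorylates the channel, fell by 0.18 on the log2 scale on the left (SE 0.05, adjusted p = 0.00922, edgeR; 0.0865 with limma on TPM). The median log2 fold change of the 17 was 0.01 on both sides.

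The junction and T-tubule genes showed 2 higher and 4 lower of 12 tested in the left ventricle, 2 higher and 0 lower of 12 in the right, and 0 higher and 1 lower of 13 in the whole heart. The shares of all genes were those given above, 12.3% higher and 13.4% lower on the left, 6.12% and 4.19% on the right, and 1.96% and 2.07% in the whole heart. Cacna1s, the skeletal L-type channel that couples to Ryr1, rose by 1.39 ± 0.23 on the left and 1.33 ± 0.21 on the right (SE, adjusted p = 0.000223 and 0.000441, edgeR). Both calls were lost with length-scaled counts (1.33 and 1.30, adjusted p = 0.0616 and 0.109) and with limma on TPM (0.34 and 0.43, adjusted p = 0.214 and 0.218). It was at 3.34 ± 0.863 CPM in the right ventricle cKO (SD, n = 4). Cmya5, a scaffold of the junction, fell by 0.50 on the log2 scale on the left (SE 0.09, adjusted p = 0.000769), Cav3, the muscle caveolin, with a log2 fold change of -0.42 ± 0.08 (SE, adjusted p = 0.000686) and Tcap, a Z-disc protein at the T-tubule, with a log2 fold change of -0.32 ± 0.07 (SE, adjusted p = 0.00433, edgeR; 0.129 with limma on TPM). Cav3 was the gene called in the whole heart (-0.31, adjusted p = 0.0198), and that call was lost without cKO 1, 2 or 3 or control 3 (adjusted p up to 0.131), and with length-scaled counts, limma on TPM or the replicate block (adjusted p up to 0.354). Tmem38b, a cation channel of the reticulum, rose by 0.30 ± 0.09 on the left and 0.29 ± 0.09 on the right (SE, adjusted p = 0.0178 and 0.0458, edgeR). Its left call was lost with length-scaled counts and without cKO 2 or control 4 (adjusted p up to 0.0864), and its right call under 5 other settings and without any of 6 libraries, cKO 1, 2, 3 or 4 or control 2 or 4 (adjusted p up to 0.217).

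Genes of calcium entry, uptake and extrusion showed 1 higher and 3 lower of 9 tested in the left ventricle, 1 higher of 9 in the right, and 1 higher and 1 lower of 10 in the whole heart. The 1 higher gene on the left is a share near the 12.3% of all genes, beside 13.4% lower there, 6.12% higher on the right, and 1.96% and 2.07% in the whole heart. Cacna1c, the pore of the cardiac L-type channel that triggers Ryr2, fell by 0.27 on the log2 scale on the left (SE 0.06, adjusted p = 0.00146; 0.144 with limma on TPM), and its subunit Cacnb2 with a log2 fold change of -0.36 ± 0.05 (SE, adjusted p = 2.90e-05, edgeR). Pln, phospholamban, the inhibitor of the calcium pump, fell by 0.50 on the log2 scale there (SE 0.07, adjusted p = 3.12e-05). Cacna2d1, an accessory channel subunit, rose by 0.48 ± 0.07 (SE, adjusted p = 8.44e-05, edgeR). On the right the call was Cacna2d1 at 0.24 ± 0.07 (SE, adjusted p = 0.0324), which was lost on leaving out any of 6 of the 8 right ventricle libraries: cKO 1, 2 or 3 or control 1, 2 or 4 (adjusted p up to 0.0964). In the whole heart the calls were Cacna2d1 (0.37, adjusted p = 0.0496) and Cacnb2 (-0.36, adjusted p = 0.0356), and both were lost without cKO 1, 2 or 3 or control 3.

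The IP3 receptor pathway showed 3 higher and 3 lower of 20 genes in the left ventricle, 2 and 2 in the right and none in the whole heart (edgeR; 3 at an unadjusted p under 0.05, and 0 with DESeq2). On the left this is close to the 12.3% of all genes called higher and 13.4% called lower, and on the right the shares of all genes were 6.12% and 4.19%, so the left count is not a result about the pathway. Erlin2, part of the complex that marks active IP3 receptors for degradation, rose by 0.26 ± 0.03 on the left (SE, adjusted p = 1.52e-05). In the right ventricle it was at -0.01 ± 0.03 (SE, adjusted p = 0.939), and the left minus right difference of 0.26 ± 0.04 (SE) passed (adjusted p = 0.00657, edgeR), but not with length-scaled counts (0.51, adjusted p = 0.259) or limma on TPM (0.56, adjusted p = 0.201). Plcg2, a phospholipase C of immune and other cells, fell by 0.53 on the log2 scale on the left (SE 0.11, adjusted p = 0.00249). Plcb4 fell on both sides, with log2 fold changes of -0.22 ± 0.06 and -0.31 ± 0.06 (SE, adjusted p = 0.012 and 0.00214), and Plce1 fell on the right with a log2 fold change of -0.41 ± 0.08 (SE, adjusted p = 0.00234, edgeR). Plcb4 and Plce1 are phospholipases C that make inositol trisphosphate. Plcd3, another phospholipase C, rose by 0.30 ± 0.08 on the left and 0.33 ± 0.08 on the right (SE, adjusted p = 0.0116 and 0.0128, edgeR). Both Plcd3 calls were lost with length-scaled counts (adjusted p = 0.0536 and 0.133), and the right one also with limma on TPM (adjusted p = 0.27) and without right ventricle cKO 1 (adjusted p = 0.0509). Erlin1, the partner of Erlin2, rose by 0.24 ± 0.06 on the left (SE, adjusted p = 0.00508, edgeR), and this was -0.10 with length-scaled counts and 0.02 with limma on TPM (adjusted p = 0.74 and 0.987). The Plcb4 calls were lost when coding transcripts alone were summed (-0.13 and -0.28, adjusted p = 0.468 and 0.162), the right one also with length-scaled counts and limma on TPM (adjusted p = 0.136 and 0.224), and the Plce1 call with limma on TPM (adjusted p = 0.0768).

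The 5 protein-coding genes whose pattern over the 6 group means was nearest to that of Ryr3, by the root mean square difference of centred log2 CPM among 14083 candidates, were Gfra2 (0.28), Ppp1r17 (0.34), Cacna2d3 (0.42), Adcy8 (0.46) and Dkk3 (0.50). Since they were picked for this likeness, their values are given with no test. Gfra2, a receptor of the GDNF family ligands, went from 1.11 ± 0.775 to 11.8 ± 1.27 CPM in the left ventricle (SD, n = 4 each), and Dkk3, a secreted protein of the Dickkopf family, from 51.2 ± 5.54 to 268 ± 15.9 CPM (SD, n = 4 each). Cacna2d3, a further accessory subunit of calcium channels, went from 0.272 ± 0.0742 to 3.80 ± 0.406 CPM (SD, n = 4 each). Of these, Adcy8, an adenylyl cyclase, was in left and right ventricle controls at 0.204 ± 0.0609 and 0.378 ± 0.251 CPM (SD, n = 4 each), while Gfra2 was at 1.11 and 1.13 CPM. Left ventricle control libraries had 0.21 to 0.38 CPM of Cacna2d3, 0.13 to 0.28 of Adcy8 and 0.53 to 2.22 of Gfra2, near the limit of detection. The rises of these genes, and their closeness to Ryr3, therefore rest on few control reads. The nearest of the other 7 receptor and junctophilin genes was Ryr1, at 1.32, with 792 genes nearer to Ryr3.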

How the data were processed

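RNA-seq values were deposited per transcript in 22 libraries. Per the submitters' processing notes, the authors used Salmon 1.2.1 for quantification; the notes also name DESeq2 1.22.2 and GRCm38.p6. Per the labels' protocols, the kit was a stranded mRNA kit. The deposited values are estimated counts (expected counts, which need not be whole) and TPM, per the file headers. Both were summed per gene over GENCODE M21: 140137 of 140658 transcripts matched, and unmatched ones took up to 0.204% of reads. Gene sums were rounded and tested with edgeR 4.0.16 (quasi-likelihood F test, TMM, low-count filter, Benjamini-Hochberg, threshold 0.05), the 6 whole hearts alone and the 16 ventricle libraries in 1 fit. SE is the log2 fold change over the root of F. CPM are TMM-scaled over all 22 libraries. Alternatives were DESeq2 1.42.0, RLE scaling, other filters, counts scaled by transcript length, coding transcripts alone, a replicate block, each library left out, and limma 3.58.1 on log2(TPM + 1). The edgeR steps were tested on simulated data.

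The members and lists were chosen with earlier results of these data known. Named were all members, Prdm16, the 5 genes most like Ryr3, and from each pathway list up to 3 genes with the smallest p per tissue; Tnnt2, Myl2, Aven and Gm44087 were added after their values were seen. Full-length levels and the ventricle block for left against right were chosen after seeing the data, as was leaving out each library for the share from coding transcripts. The planned test of Ryr3 between ventricles is not given, since its choice rests on the same libraries.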

Additional observations from a re-analysis of the deposited data

Results flagged for a closer look

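Of 96 groups of 4 libraries examined for a library far from the other 3, of which chance alone would single out about 5%, 7 had one. Ryr3 CPM was lowest in right ventricle cKO 3, at 77.87 against 92.58 to 95.08. Its summed TPM was highest in left ventricle cKO 4, at 56.19 against 21.08 to 23.66, the library with reads on the 137-base transcript. Itpr1 was highest in left ventricle control 3, at 124.16 CPM against 109.37 to 110.55 and at 12.98 full-length TPM against 11.59 to 11.69. Itpr2 was lowest in right ventricle cKO 3, at 44.58 CPM against 50.07 to 50.37 and at 3.51 full-length TPM against 4.37 to 4.46. Jph2 CPM was highest in left ventricle control 3, at 314.44 against 281.34 to 283.59.

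The cKO effect differed between the ventricles for Erlin2, by 0.26 on the log2 scale (left minus right, adjusted p = 0.00657, edgeR), and for Prdm16, by -0.44 (adjusted p = 0.0404). The Prdm16 difference was lost on leaving out most single libraries.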

How the results depend on the processing

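Of the single results of the 8 genes, 420 of 432 kept direction and side of the threshold (for Ryr3, which has no test, stayed within 1 SD) when 1 library was left out, and 358 of 386 under other settings. Genes called in the whole heart numbered 1727 with DESeq2, 138 with length-scaled counts, 63 with limma on TPM, 487 with coding transcripts alone and 218 with the replicate block. With length-scaled counts and limma they numbered 2683 and 2375 in the left ventricle, 824 and 628 in the right (1052 with that ventricle alone), 57 and 39 for the left minus right difference (467 with DESeq2 and 152 with the replicate block), 1685 and 1212 for left against right in controls, and 3208 and 3518 in the cKO. Members called were 2 with DESeq2 and 1 without a filter in the whole heart, 1 with limma in the left ventricle, 2 with length-scaled counts and 1 with limma for left against right in controls, and 3 with limma in the cKO. Receptor partners called in the whole heart were 3 with DESeq2, 2 at a filter of 1 CPM, without a filter or with coding transcripts, and 0 with length-scaled counts, limma or the replicate block; with length-scaled counts and limma they were 5 and 3 on the left and 3 and 3 on the right. IP3 pathway genes on the right were 1 and 0 under those settings. Junction genes in the whole heart were 5 with DESeq2, 2 at 1 CPM and 0 with length-scaled counts, limma or the block, on the left 3 with limma, and on the right 1 with RLE scaling, without a filter or with that ventricle alone and 0 with length-scaled counts or limma. Uptake genes in the whole heart were 5 with DESeq2, 1 with length-scaled counts and 0 with limma, coding transcripts or the block, and on the right 0 with length-scaled counts, limma or coding transcripts. The cause of these shifts was not tested.

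Leaving out 1 library gave 184 to 1292 genes called in the whole heart and 125 to 358 for the left minus right difference, 0 to 1 members in the whole heart, in the right ventricle and for that difference, 0 to 2 receptor partners in the whole heart and 5 to 7 on the left, 0 to 2 and 2 to 5 IP3 pathway genes in the whole heart and on the right, 0 to 3 and 1 to 3 junction genes, and 0 to 2 uptake genes in both. The Ryr3 share of ryanodine receptors was 16.5% from coding transcripts and 28.7% from full-length ones in the whole heart cKO, 2.66% from CPM and 1.33% from coding transcripts in the left ventricle controls, 26.4% and 23.7% in the left ventricle cKO (14.1% from coding transcripts without cKO 4, the library with the 137-base transcript), and 18.4% and 9.83% in the right ventricle cKO. Reversed were Cacnb2 in the whole heart with coding transcripts (0.28), Erlin1 on the left with length-scaled counts (-0.10) and Tcap for left against right in the cKO with limma (0.00).

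Among the 5 genes most like Ryr3, leaving out 1 library changed the sign of small, untested left-right values. The left minus right difference ranged over -0.02 to 1 for Gfra2, -0.26 to 0.50 for Ppp1r17, -0.02 to 0.97 for Cacna2d3, -0.33 to 0.50 for Dkk3; left against right in controls over -0.60 to 0.42 for Gfra2, -0.20 to 0.55 for Ppp1r17, -0.50 to 0.49 for Cacna2d3, -0.32 to 0.44 for Dkk3; and in the cKO over -0.03 to 0.15 for Adcy8. In controls Cacna2d3 was 0.08 with coding transcripts, and Dkk3 0.08 with limma and 0.01 with the shared block.

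The block planned within each tissue was not run for left against right, where a block shared by the ventricles of a genotype was added after seeing the data. Between genotypes, same-numbered libraries had correlations of -0.15 to 0.01 in the whole heart, 0.01 to 0.07 on the left and -0.01 to 0.11 on the right, and 0 of 3, 2 of 4 and 2 of 4 libraries correlated best with their own number. Between the ventricles these were -0.10 to 0.09 in the controls, with 1 of 4, and 0.06 to 0.20 in the cKO, with 4 of 4, a hint from the data that numbers may mark pairs there. Since not every pair was over 0.1 in any comparison, the numbers were not taken as pairs. With the shared block 3548 genes were called for left against right in controls and 5468 in the cKO, 5 and 6 of the 7 genes among them.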
